A study of Callithrix jacchus with 54 samples.

Results

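The effect of bone morphogenetic protein 4 (BMP4) in the presence of SOX17 was measured at 48 h of germ cell induction from common marmoset embryonic stem cells (cjESCs). Its libraries were picked out by condition and time, as SOX17 + BLSE against SOX17 + LSE, which gave 4 of the 54 RNA-seq libraries, 2 in each condition. SOX17 + BLSE held BMP4, LIF, SCF and EGF with a Rock inhibitor, and SOX17 + LSE held the same factors without BMP4. Both started from CMES40 cells kept in DK20FA medium and carried the reporters BLIMP1-tdTomato and NANOS3-eGFP together with rtTA, tetO-BLIMP1, SOX17-GR and DD-TFAP2C. The number inside the last of these names climbs from library to library in the labels, and DD-TFAP2C is taken here as the name meant in each. SOX17-GR is SOX17 joined to the hormone-binding part of the glucocorticoid receptor, so dexamethasone was present in both conditions. The transgenes are of human origin, were placed by piggyBac transposition, and sat in 1 transgenic line raised from picked colonies. Cells were collected by FACS, with a gate that the labels give as "all" for the 48 h libraries and not as a reporter, and fewer cells of a type and less RNA per cell cannot be told apart in such bulk samples. Values are TPM, transcript abundances scaled to a common total in each library, and the sequencing depth behind them is unknown.

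BMP4 binds receptor kinases that phosphorylate SMAD1, SMAD5 and SMAD9, which enter the nucleus with SMAD4 and activate early targets such as the ID genes and the inhibitory SMADs. In the primate embryo, BMP signalling acts on the epiblast at the time when amnion, primordial germ cells (PGCs) and primitive streak derivatives arise, whereas NODAL, a TGF-beta family ligand that acts through SMAD2 and SMAD3, drives mesendoderm. BMP4 is also the cytokine that starts PGC specification in mouse and human culture systems.

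SOX17 transcript was higher than in cjESCs in both conditions (adjusted p = 7.85e-12 with BMP4 and 2.11e-08 without). SOX17 (gene 100396115), a transcription factor that specifies primate PGCs and also marks endoderm, was at 368 and 322 TPM with BMP4 and at 216 and 166 TPM without it, against 27.6 and 36.2 TPM in cjESCs and 57.6 and 57.1 TPM at 48 h in BLSE with no SOX17 induction. The BMP4 libraries were thus both above the BMP4-free ones, by 0.86 on the log2 scale (adjusted p = 0.0407), and these TPM values do not separate transgene reads from reads of the gene. The adjusted p of SOX17 was 0.062 to 0.307 when any 1 of the 4 libraries was left out. The part of this difference in SOX17 in the differences below was not tested.

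With BMP4, an ectodermal keratin and an AP-2 factor stood high, and without it NODAL and MIXL1 did. In what follows, values are given for replicates 1 and 2 with BMP4 and then for replicates 1 and 2 without it. KRT72 (gene 100395494), a type II keratin of the inner root sheath of hair, was at 206 and 169.6 TPM with BMP4 and 0.62 and 0.36 TPM without. TFAP2A (gene 100393261), a transcription factor of amnion, trophoblast and surface ectoderm, was at 44.2 and 43.2 TPM with BMP4 and 3.71 and 5 TPM without. MIXL1 (gene 100405816), a homeobox factor of the primitive streak, was at 4.36 and 10.04 TPM with BMP4 and 219 and 179 TPM without, and NODAL (gene 100406643) at 11.7 and 19.6 TPM with BMP4 and 180.4 and 197 TPM without. The conditions did not overlap in any of these genes, nor did they in 58.0% of all genes tested. The log2 fold changes of BMP4 over no BMP4 were 6.98 ± 0.39 for KRT72, 3.07 ± 0.28 for TFAP2A, −4.69 ± 0.67 for MIXL1 and −3.55 ± 0.40 for NODAL (± SE, largest adjusted p = 2.9e-06). All fold changes were computed on log2(TPM + 1), which understates the change of genes near 0, and adjusted p-values came from limma with Benjamini-Hochberg adjustment over the 11197 genes that passed a filter on low values.

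**Figure D1:**
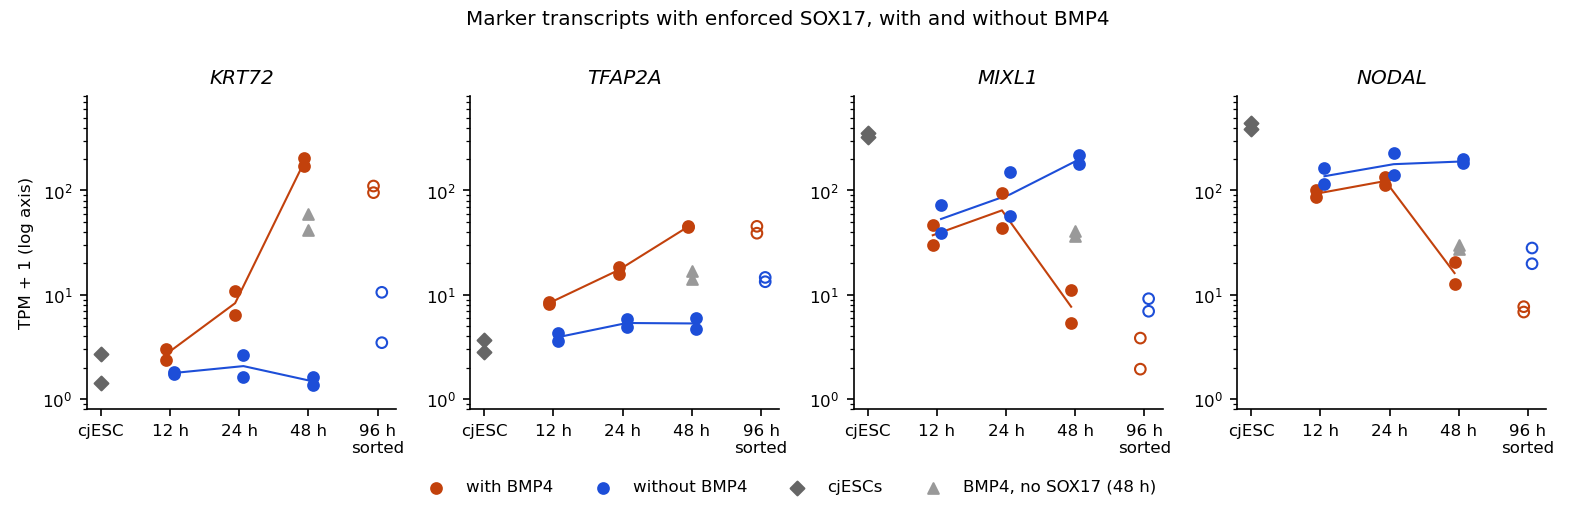
TPM + 1 (log axis) of KRT72, TFAP2A, MIXL1 and NODAL by library. Shown are cjESCs, cells with SOX17 at 12, 24, 48 and 96 h with and without BMP4, and BLSE without SOX17 induction at 48 h. Points are single libraries (2 per condition), lines join the means of the log2 values, open circles at 96 h are sorted cells, and the 2 conditions are furthest apart at 48 h in each of these genes.

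For these 4 genes the values without BMP4 lay nearer to those of cjESCs, which had been sorted for the surface antigen TRA-1-60. In cjESCs, MIXL1 stood at 353 and 326 TPM, NODAL at 390.4 and 438 TPM, TFAP2A at 2.69 and 1.85 TPM and KRT72 at 0.44 and 1.70 TPM. Against cjESCs, the log2 fold change of MIXL1 was −5.47 with BMP4 (adjusted p = 3.69e-08) and −0.77 without it (adjusted p = 0.467). That of NODAL was −4.68 and −1.13 (adjusted p = 1.21e-11 and 0.0406), and that of TFAP2A 3.79 and 0.71 (adjusted p = 2.6e-13 and 0.0648). KRT72 gave 6.57 and −0.41 (adjusted p = 1.41e-15 and 0.514). These pairs of values share the cjESC libraries and were not compared with each other beyond the BMP4 test above. The nearness is that of 48 h only. Without BMP4, MIXL1 had been lower before, at 71.2 and 38.4 TPM at 12 h and 147.7 and 55.7 TPM at 24 h.

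At 48 h, 114 genes were differentially expressed (DEGs, which passed 4-fold at an adjusted p under 0.01 while their mean on the log2 scale was above 1.5), which was 1.02% of the genes tested. Of these, 69 (0.616%) were higher with BMP4 and 45 (0.402%) were lower. In all 114 both BMP4 libraries lay on the same side of both BMP4-free ones, as they did in 58.0% of all genes tested. The DEGs were selected on these same 4 libraries, so their lack of overlap is no separate evidence. An adjusted p under 0.05 alone, called higher or lower below, was met by 804 genes (7.18%) that were higher and 687 (6.14%) that were lower, and the median over all genes was 0.001 on the log2 scale. Leaving out 1 of the 4 libraries gave 834 to 930 such genes in place of 1491, and 102 to 125 DEGs (67 to 82 higher and 30 to 50 lower). A fit of the 4 libraries alone, with 2 residual degrees of freedom, called 2 DEGs, KRT72 and SP6, while 115 genes passed the other DEG thresholds there at an unadjusted p under 0.05. With 2 libraries a side, no exact permutation test of a single gene can go below p = 0.333, so the calls rest on the spread pooled over all 27 conditions.

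**Figure D2:**
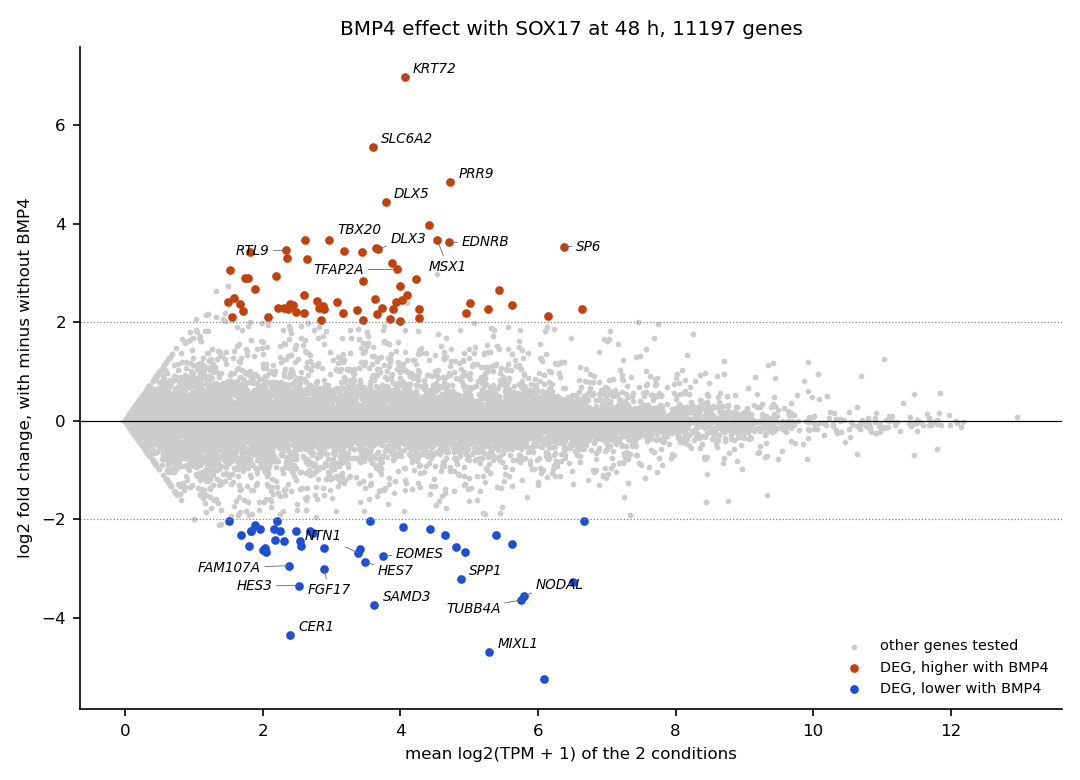
Log2 fold change (BMP4 over no BMP4, with SOX17, 48 h) against the mean log2(TPM + 1) of the 2 conditions for the 11197 genes tested. Orange and blue points are the 69 higher and 45 lower DEGs, dotted lines mark a 4-fold change, the genes with large changes that the text describes and TFAP2A are named, and the lowest point is a gene that the table lists by a locus number only.

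Among the largest increases of genes with a symbol were those of KRT72, SLC6A2, PRR9, DLX5, MSX1, TBX20, EDNRB, SP6, DLX3 and RTL9, with log2 fold changes from 6.98 down to 3.46. SLC6A2 (gene 100388661), the noradrenaline transporter, was at 93.7 and 72.5 TPM with BMP4 and 0.71 and 0.83 TPM without (5.56 on the log2 scale). PRR9 (gene 100896559), a proline-rich protein of the epidermal differentiation cluster, was at 120.3 and 164 TPM and 4.91 and 3.07 TPM (4.85). The BMP4-free libraries of both genes stayed below 5 TPM. SP6 (gene 100407791), a zinc-finger factor of epithelial appendages, was at 280.4 and 283 TPM and 21.9 and 24.8 TPM (3.54). EDNRB (gene 100412645), an endothelin receptor, was at 83.7 and 98.2 TPM and 5.50 and 7.48 TPM (3.63), and RTL9 (gene 100896645), a retrotransposon-derived gene, at 15.2 and 16.3 TPM and 0.41 and 0.64 TPM (3.46). The largest adjusted p of these increases was 5.03e-08.

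The largest decreases among genes with a symbol were those of MIXL1, CER1, SAMD3, TUBB4A, NODAL, HES3, SPP1, FGF17, FAM107A, HES7, EOMES and NTN1, from −4.69 to −2.69. CER1 (gene 100410143), a secreted antagonist of NODAL and BMP ligands, was at 0.35 and 0 TPM with BMP4, 1 library being listed at 0, and 25.04 and 21.0 TPM without (−4.36, adjusted p = 0.000931). TUBB4A (gene 100415692), a beta-tubulin, was at 11.8 and 17.2 TPM and 201 and 179 TPM (−3.64). SAMD3 (gene 100395562) was at 1.51 and 3.48 TPM and 45.1 and 43.4 TPM (−3.75). The HES genes are transcriptional repressors related to Notch targets, HES7 being the oscillator of somite segmentation. HES3 (gene 100408172) was at 0.22 and 1.67 TPM with BMP4 and 20.9 and 14.5 TPM without (−3.35), and HES7 (gene 100410555) at 2.55 and 3.86 TPM and 27.8 and 31.4 TPM (−2.88). SPP1 (gene 100412217), osteopontin, was at 6.29 and 11.8 TPM and 83.1 and 95.1 TPM (−3.22), FAM107A (gene 100394554) at 0.72 and 1.06 TPM and 13.8 and 13.2 TPM (−2.95), and NTN1 (gene 100401488), the guidance cue netrin 1, at 3.37 and 2.91 TPM and 23.6 and 27.8 TPM (−2.69). A gene listed by a locus number only, LOC100408978, was lower by more than any of these, at 4.71 and 20.3 TPM with BMP4 and 425 and 412 TPM without (−5.25, adjusted p = 3.14e-06), and was looked at after its values were seen.

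The direct targets and feedback genes of BMP signalling stood higher with BMP4 in 13 of the 14 measured members of a list of 16, with a median log2 fold change of 1.57, against 7.18% higher and a median of 0.001 over all genes tested. ID1 (gene 100412122), which encodes an inhibitor of bHLH factors, was at 1004 and 882 TPM with BMP4 and at 512 and 521 TPM without (0.86 ± 0.18). ID4 (gene 103792242) was at 49.9 and 46.4 TPM and 19.5 and 16.4 TPM (1.38 ± 0.22). Both genes thus had more than 15 TPM without added BMP4. ID3 was at 549 and 478 TPM and 380.5 and 343 TPM (0.50, adjusted p = 0.0485), a call that was lost without any 1 of the 4 libraries (adjusted p 0.0771 to 0.32).

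The inhibitory SMADs and the pseudoreceptor BAMBI, which damp the pathway, were higher as well. SMAD6 (gene 100389459) was at 174 and 145 TPM with BMP4 and 52.1 and 45.1 TPM without (1.69 ± 0.21). SMAD7 (gene 100405407) was at 114 and 111 TPM and 53.0 and 46.5 TPM (1.16 ± 0.17). BAMBI (gene 100401264) was at 576 and 548 TPM and 162 and 168 TPM (1.76 ± 0.18). The conditions did not overlap in any of the 3, against 58.0% of all genes tested without overlap.

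The homeobox targets on the list were the MSX and DLX genes, which act in limb, neural crest and surface ectoderm. MSX1 (gene 100412220) was at 95.5 and 70.2 TPM with BMP4 and 6.08 and 4.92 TPM without (3.68 ± 0.40). MSX2 (gene 100387689) was at 313 and 318 TPM and 122 and 107 TPM (1.46 ± 0.22). In cjESCs MSX1 was at 2.42 and 2.35 TPM and MSX2 at 21.6 and 24.5 TPM, so that MSX2 was well above its cjESC values in both conditions. DLX3 (gene 100387476) was at 42.7 and 40.9 TPM and 2.87 and 2.76 TPM (3.49), DLX5 (gene 100399579) at 72.7 and 55.2 TPM and 2.23 and 1.71 TPM (4.44) and DLX6 (gene 100896805), the neighbour of DLX5 in the genome, at 11.8 and 9.49 TPM and 0 and 0.16 TPM (3.43). Of the T-box targets, TBX2 (gene 100411884) was at 8.14 and 4.55 TPM and 0.74 and 0.32 TPM (2.23) and TBX3 (gene 100397791) at 289.9 and 274 TPM and 125 and 101 TPM (1.32, adjusted p = 0.00106). HEY1, a repressor shared with the Notch pathway, was the member without a call, at 77.7 and 79.8 TPM and 73.6 and 64.0 TPM (adjusted p = 0.604).

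**Figure D3:**
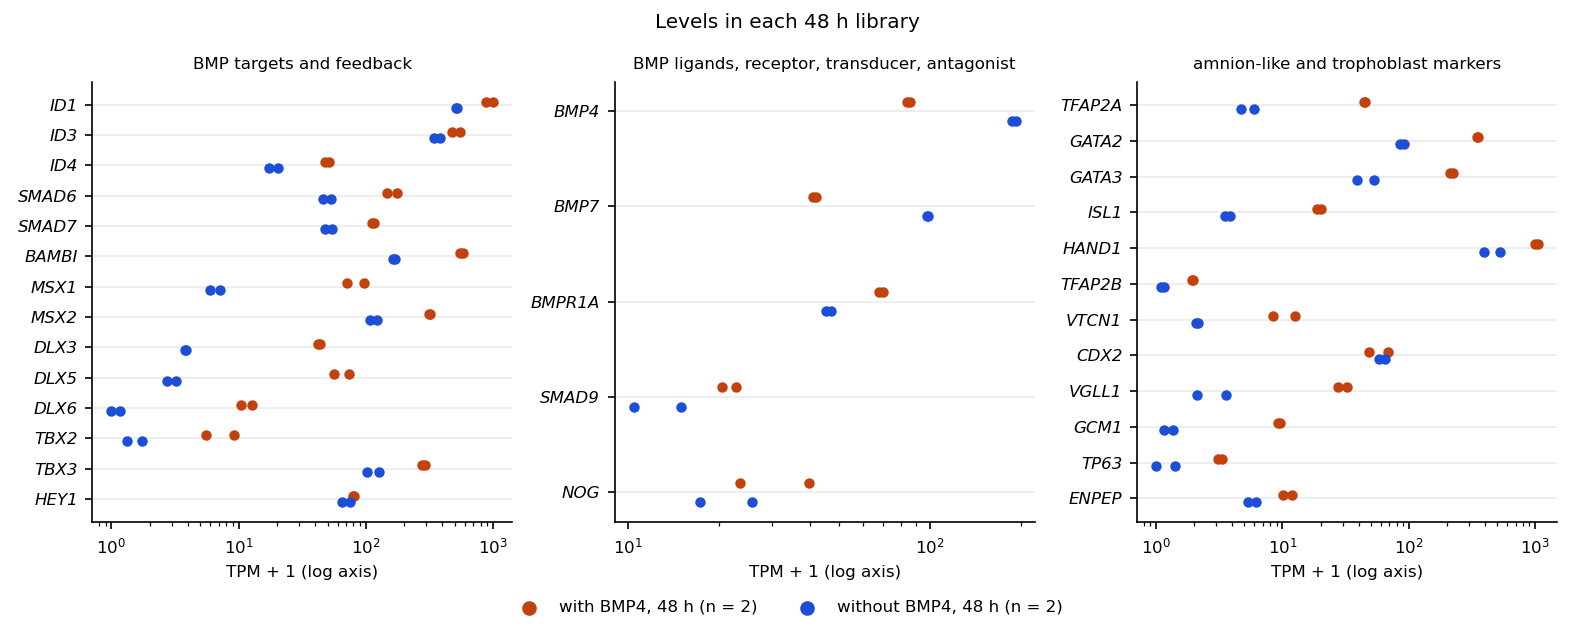
TPM + 1 (log axis) of BMP targets, of parts of the BMP pathway and of amnion-like and trophoblast markers in each 48 h library with SOX17, with BMP4 (orange, 2 libraries) and without (blue, 2 libraries). In 13 of the 14 BMP targets the BMP4 libraries stand higher at an adjusted p under 0.05, while BMP4 and BMP7 transcripts stand lower.

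Of the parts of the BMP pathway itself, 3 were higher and 2 lower with BMP4 among 19 measured members of a list of 23 (median −0.20, against 7.18% higher and 6.14% lower over all genes). Of 6 ligands, BMP4 (gene 100398270) was lower with added BMP4 protein, at 85.2 and 83.0 TPM against 191 and 186 TPM (−1.16 ± 0.19, adjusted p = 2.42e-05). BMP7 (gene 100402827) was also lower, at 40.8 and 39.8 TPM against 97.8 and 97.1 TPM (−1.25 ± 0.24). The other 4 ligands, BMP2, BMP5, BMP6 and GDF6, did not pass the test. Of the receptors and transducers, BMPR1A was at 69.1 and 66.9 TPM with BMP4 and 46.1 and 44.1 TPM without (0.58, adjusted p = 0.0321) and SMAD9 at 21.7 and 19.5 TPM and 13.9 and 9.44 TPM (0.79, adjusted p = 0.0406). Without any 1 of the 4 libraries BMPR1A was not called (adjusted p 0.108 to 0.164), and SMAD9 was called only without replicate 1 of SOX17 + LSE (adjusted p 0.0343 to 0.397 over the 4). NOG, which encodes the secreted antagonist noggin, was at 38.9 and 22.5 TPM with BMP4 and 24.7 and 16.3 TPM without, and its groups overlapped (adjusted p = 0.4).

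Of the amnion-like factors, 8 of 11 measured members of a list of 14 were higher with BMP4 and 0 were lower (median 1.32, against 7.18% higher over all genes). The summed TPM of the 11 was 2054 and 1953 with BMP4 and 857 and 694 without. HAND1 alone gave 1048 and 991 TPM of this with BMP4 and 521 and 395 TPM without. TBX3, which is also on the list of BMP targets, gave 289.9 and 274 TPM and 125 and 101 TPM. Of the 3 measured members that are not transcription factors, 1 was higher, VTCN1. Besides TFAP2A, the GATA factors that act in amnion and trophoblast were higher. GATA3 (gene 100389441) was at 223 and 211 TPM with BMP4 and 52.1 and 37.5 TPM without (2.27 ± 0.28), and GATA2 (gene 100411598) at 347 and 354 TPM and 83.4 and 90.8 TPM (2.0 ± 0.33), just under the 4-fold threshold of a DEG. ISL1 (gene 100385297), a LIM homeobox factor of amnion and cardiac progenitors, was at 19.2 and 17.6 TPM and 2.81 and 2.52 TPM (2.41 ± 0.27). VTCN1 (gene 100396567), a membrane protein found on amnion, was at 11.7 and 7.47 TPM and 1.08 and 1.14 TPM (2.30 ± 0.35). HAND1, a bHLH factor of extraembryonic mesoderm and amnion, was at 1048 and 991 TPM and 521 and 395 TPM (1.16, adjusted p = 0.00968), and was called without replicate 1 of SOX17 + LSE but not without any 1 of the other 3 libraries (adjusted p 0.0219 to 0.136 over the 4). TFAP2B was called higher (0.79, adjusted p = 0.00472) but had an adjusted p of 0.0547 without replicate 1 of SOX17 + LSE. CDX2 was at 66.9 and 47.7 TPM with BMP4 and 64.1 and 56.9 TPM without, with overlapping groups and a 95% interval of the log2 fold change from −0.94 to 0.75.

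The trophoblast markers were higher in 4 of 5 measured members of a list of 8, and 0 were lower (median 1.43, against 7.18% higher over all genes). The summed TPM of the 6 members in the table was 50.9 and 56.3 with BMP4 and 9.28 and 10.8 without, and no member was at 0 in all 4 libraries. The part of the amnion-like and trophoblast markers in the differences of the other lists was not tested. VGLL1 (gene 100389649), a coactivator of TEAD factors in trophoblast, was at 26.5 and 31.4 TPM with BMP4 and 1.11 and 2.58 TPM without (3.44 ± 0.44). GCM1 (gene 100403173), the factor of syncytial trophoblast, was at 8.24 and 8.54 TPM and 0.36 and 0.16 TPM (2.90 ± 0.41). TP63, a factor of stratified epithelia and early trophoblast, was at 2.33 and 2.10 TPM and 0 and 0.42 TPM (1.43). ENPEP, an aminopeptidase, was at 9.10 and 10.9 TPM and 5.16 and 4.30 TPM (0.94), a call that was lost without any 1 of the 4 libraries (adjusted p 0.0839 to 0.208). LOC100391685, for which RefSeq gives the synonym CGB (a chorionic gonadotropin subunit) and which was looked at after its values were seen, was at 37.0 and 45.8 TPM and 1.47 and 4.49 TPM (3.52, adjusted p = 0.000523). Reads of the near-identical gonadotropin subunit genes may be split between copies in such counting.

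Of the keratins, 13 of the 42 in the table passed the filter, and 4 were higher and 0 lower with BMP4 (median 0.25, against 7.18% higher over all genes). KRT72 and KRT80 were the DEGs among them, and 20 keratins, KRT5 and KRT14 of basal epidermis included, were at 0 in all 4 libraries. KRT80 (gene 100393548), a keratin of differentiating epithelia, was at 19.3 and 17.7 TPM with BMP4 and 0.58 and 1.53 TPM without (3.28 ± 0.41). The abundant simple-epithelium keratins differed little, KRT18 being at 3322 and 3469 TPM and 2301 and 2387 TPM (0.53), KRT8 at 2040.3 and 2014 TPM and 1811 and 1846 TPM (95% interval −0.14 to 0.44) and KRT19 at 1167 and 911 TPM and 1391 and 1159 TPM with overlapping groups. KRT18 was not called without replicate 2 of SOX17 + BLSE or replicate 1 of SOX17 + LSE (adjusted p 0.039 to 0.069 over the 4). KRT78 was at 1.29 and 0.54 TPM and 0 and 0 TPM (0.91) but had an adjusted p of 0.157 without replicate 1 of SOX17 + BLSE.

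The NODAL axis and the primitive streak factors went the other way, with 9 of 11 measured members of a list of 15 lower with BMP4 and 0 higher (median −2.11, against 6.14% lower over all genes). In the NODAL axis, FOXH1 (gene 100389238), the partner of SMAD2 and SMAD3 on DNA, was at 22.5 and 19.4 TPM with BMP4 and 59.9 and 55.7 TPM without (−1.42 ± 0.18). GDF3 (gene 100394876), a ligand that pairs with NODAL, was at 499 and 502 TPM and 821 and 824 TPM (−0.71 ± 0.14). TDGF1, the NODAL co-receptor, was at 328 and 388 TPM and 374 and 446 TPM with overlapping groups (95% interval −0.54 to 0.15). Of the 4 measured parts of the axis, the ligand NODAL itself was the only DEG.

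Of the 7 measured streak factors, 6 were lower, MIXL1 among them. EOMES (gene 100401577), a T-box factor of mesendoderm, was at 3.22 and 5.41 TPM with BMP4 and 39.5 and 29.1 TPM without (−2.75 ± 0.54), and GSC (gene 100390778), a homeobox factor of the organizer, at 0.33 and 0.97 TPM and 10.3 and 7.79 TPM (−2.62 ± 0.51). TBXT (gene 100384957), brachyury, was lower but remained abundant, at 179 and 213 TPM with BMP4 and 570.2 and 659 TPM without (−1.65 ± 0.36, adjusted p = 0.00106). FGF8 was at 1.25 and 2.92 TPM and 12.1 and 13.9 TPM (−2.24, adjusted p = 0.00106), and without replicate 1 of SOX17 + BLSE its adjusted p was 0.0503. LHX1, a LIM homeobox factor, was at 0.30 and 0.19 TPM and 4.07 and 4.71 TPM (−2.11) and was not called without any 1 of the 4 libraries (adjusted p 0.059 to 0.0857). In cjESCs, EOMES was at 30.6 and 29.98 TPM and TBXT at 435 and 404 TPM, so the BMP4-free cells of 48 h did not differ from them beyond the test in these genes (adjusted p = 0.888 and 0.3). EOMES had been lower in between, at 7.53 and 4.93 TPM at 12 h and 17.3 and 4.73 TPM at 24 h without BMP4.

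**Figure D4:**
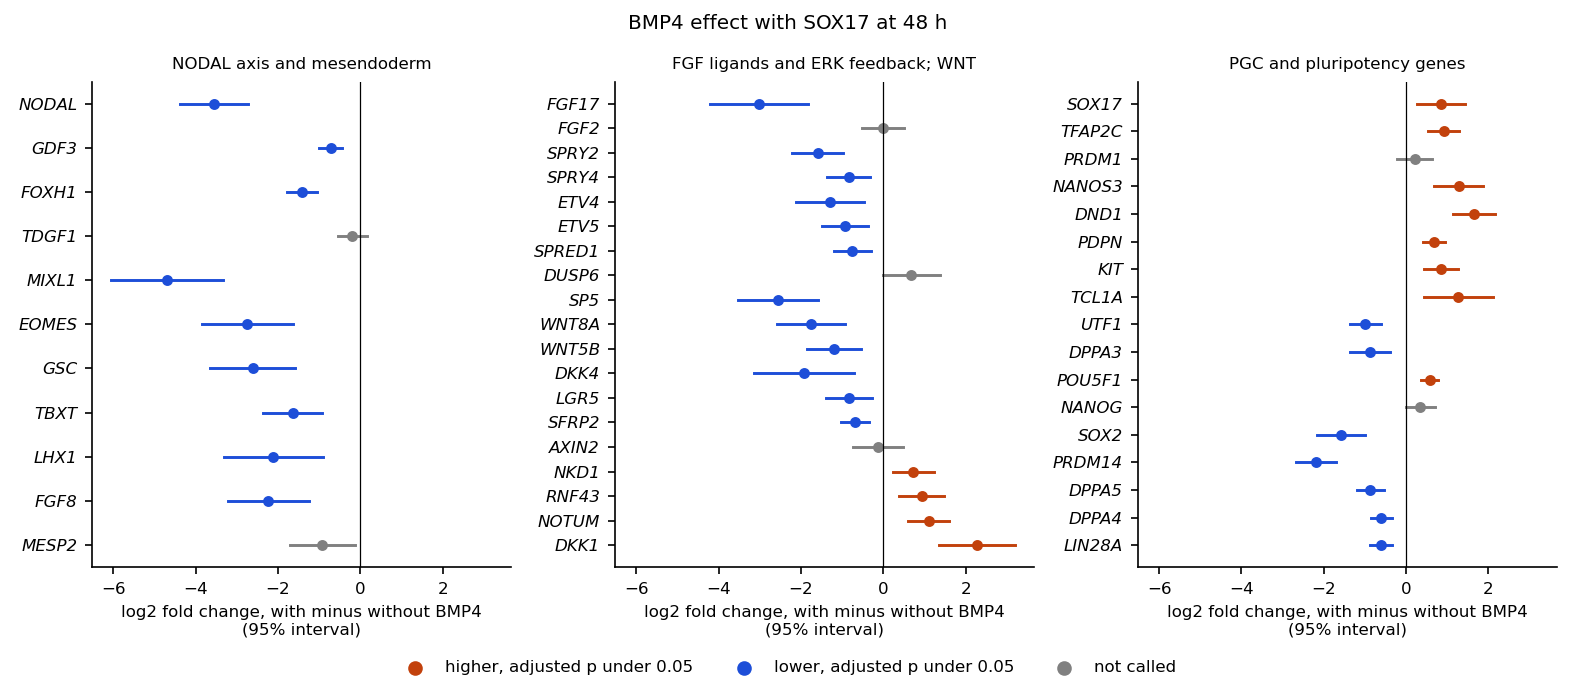
Log2 fold change (BMP4 over no BMP4, with SOX17, 48 h) with its 95% interval for genes of the NODAL axis and mesendoderm, of FGF and WNT signalling and of PGCs and pluripotency. Orange and blue mark an adjusted p under 0.05 (higher and lower) and grey no call, with the largest decreases in MIXL1, NODAL and FGF17.

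FGF ligands and the feedback genes of ERK signalling were lower in 7 of 17 measured members of a list of 20, and 0 were higher (median −0.50, against 6.14% lower over all genes). FGF17 (gene 100401797) was at 0.76 and 2.86 TPM with BMP4 and 25.3 and 15.99 TPM without (−3.02 ± 0.58, adjusted p = 0.000266). SPRY2 (gene 100409423), a feedback inhibitor of ERK signalling, was at 6.59 and 4.94 TPM and 21.1 and 17.7 TPM (−1.60 ± 0.30). The calls of SPRY4, SPRED1, ETV4 and ETV5, with log2 fold changes from −1.30 to −0.75, were each lost without 3 or all 4 of the single libraries, so that 3 to 4 members stayed called with 1 library left out. FGF2 was at 104 and 146 TPM and 127 and 121 TPM with overlapping groups, DUSP6 at 60.2 and 56.1 TPM and 39.5 and 32.4 TPM (adjusted p = 0.22), and none of the 4 receptors was called.

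The WNT genes were split, with 4 higher and 6 lower of 18 measured members of a list of 23 (median −0.21, against 7.18% higher and 6.14% lower over all genes). Of the targets, SP5 (gene 100412604) was at 10.3 and 10.7 TPM with BMP4 and 60.3 and 74.5 TPM without (−2.57 ± 0.48). NOTUM (gene 100393886), a secreted enzyme that inactivates WNT proteins, was at 56.4 and 53.7 TPM and 24.1 and 26.2 TPM (1.1 ± 0.24). SP5 and NOTUM, both targets of beta-catenin, thus stood on opposite sides, and AXIN2, at 6.68 and 9.92 TPM and 9.61 and 8.46 TPM, and LEF1, at 4 and 3.02 TPM and 2.75 and 3.23 TPM, had overlapping groups. DKK1 (gene 100387662), a secreted WNT inhibitor, was at 32.2 and 31.0 TPM and 6.12 and 5.36 TPM (2.28 ± 0.46). The ligand WNT8A (gene 100402422) was at 17.1 and 31.2 TPM and 79.2 and 82.8 TPM (−1.76, adjusted p = 0.00209), but its adjusted p was 0.0932 without replicate 1 of SOX17 + BLSE. SFRP2, a WNT-binding protein, was at 135 and 133 TPM and 199.7 and 234 TPM (−0.69, adjusted p = 0.00388), and its adjusted p was 0.0849 without replicate 2 of SOX17 + LSE. With 1 library left out, 2 to 3 members were higher and 2 to 5 lower, and WNT5B, LGR5, DKK4, RNF43 and NKD1 were the other members with a call in the full data.

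Among PGC genes, 7 of 12 measured members of a list of 13 were higher with BMP4 and 2 were lower (median 0.76, against 7.18% higher and 6.14% lower over all genes). SOX17, which the line carries as a transgene, was counted among the 7. Its call was lost when any 1 of the 4 libraries was left out. NANOS3 (gene 100405226), an RNA-binding protein of early germ cells, was at 106 and 94.6 TPM with BMP4 and 42.2 and 39.6 TPM without (1.27 ± 0.29). DND1 (gene 100396355), another germline RNA-binding protein, was at 231 and 234 TPM and 61.7 and 86.5 TPM (1.66 ± 0.25). Both conditions were above cjESCs for NANOS3 (0.42 and 0.74 TPM), whereas DND1 without BMP4 did not differ from cjESCs (59.0 and 61.1 TPM) beyond the test (adjusted p = 0.488). TFAP2C (gene 100400638), an AP-2 factor that acts with SOX17 in PGC fate, was at 525 and 539.8 TPM and 276 and 289 TPM (0.91 ± 0.18), and PDPN (gene 100387851), a surface marker of PGC-like cells, at 648 and 685 TPM and 385 and 454 TPM (0.67 ± 0.13). The line carries transgenes of PRDM1 (BLIMP1) and TFAP2C, whose reads these values do not separate from those of the genes. PRDM1 (gene 100401970) was at 73.4 and 72.3 TPM and 60.7 and 65.1 TPM and was not called (95% interval −0.22 to 0.64). KIT and TCL1A were higher at under 5 TPM, KIT losing its call without replicate 2 of SOX17 + BLSE (adjusted p = 0.075) and TCL1A keeping its call only without replicate 2 of SOX17 + LSE (adjusted p 0.0359 to 0.361 over the 4). UTF1 (gene 100392482) was lower, at 83.2 and 77.1 TPM and 149 and 173 TPM (−1.0 ± 0.19), and DPPA3 was at 25.5 and 30.4 TPM and 52.4 and 51.7 TPM (−0.88), called in the full data and without replicate 2 of SOX17 + BLSE but not without any other single library (adjusted p 0.0303 to 0.138 over the 4).

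Pluripotency genes did not move as a block, with 1 higher and 6 lower of 14 measured members of a list of 15 (median −0.61, against 7.18% higher and 6.14% lower over all genes). POU5F1 (gene 100384946), which PGCs keep, was at 4314 and 4678 TPM with BMP4 and 2723 and 3370.0 TPM without (0.57 ± 0.10). SOX2 (gene 100407856), which primate PGCs lack, was at 2.66 and 3.36 TPM and 9.51 and 12.7 TPM (−1.59 ± 0.28), far below cjESCs (191 and 200.4 TPM) in both conditions. PRDM14 (gene 100411718) was at 9.92 and 8.26 TPM and 40.3 and 50.5 TPM (−2.20 ± 0.24), and ZIC2 (gene 100412407), a factor of primed pluripotency and neural fate, at 12.2 and 10.3 TPM and 79.7 and 74.1 TPM (−2.67 ± 0.60). The other lower members, DPPA5, DPPA4 and LIN28A, differed by −0.87, −0.61 and −0.62. NANOG was at 270.2 and 331 TPM and 196 and 282 TPM, with overlapping groups (adjusted p = 0.213).

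Of the germ layer lists, definitive endoderm had 2 lower and 0 higher of 9 measured members of a list of 12 (median −0.29), which were CER1 and GATA6 (gene 100398286), an endoderm and extraembryonic factor at 92.1 and 84.3 TPM with BMP4 and 308 and 220.3 TPM without (−1.55 ± 0.33). The counts of the germ layer lists stand beside 7.18% higher and 6.14% lower over all genes tested. Lateral mesoderm and vascular genes had 3 higher and 2 lower of 11 measured members of a list of 12 (median −0.46). TBX20 (gene 100385240), a cardiac T-box factor, was at 33.5 and 21.4 TPM and 1.05 and 1.31 TPM (3.67 ± 0.38), TBX4 (gene 100411523) at 18.9 and 12.2 TPM and 2.68 and 2.08 TPM (2.27 ± 0.35) and HAND2 at 3.60 and 1.5 TPM and 0.18 and 0 TPM (1.64). The 2 lower members were endothelial, KDR at 18.7 and 18.2 TPM and 54 and 46.3 TPM (−1.39) and PECAM1 at 6.16 and 7.71 TPM and 13.2 and 11.5 TPM (−0.76). PECAM1 was not called without any 1 of the 4 libraries (adjusted p 0.0674 to 0.283), and KDR stayed called only without replicate 2 of SOX17 + LSE (adjusted p 0.041 to 0.093 over the 4). Neural factors had 2 higher and 1 lower of 8 measured members of a list of 12 (median −0.10), SOX3 being at 20.9 and 25.4 TPM and 5.18 and 9.59 TPM (1.57), POU3F2 at 1.67 and 1.09 TPM and 0.11 and 0.45 TPM and ZIC2 being the lower member. SOX3 was not called without replicate 1 of SOX17 + LSE (adjusted p = 0.0863), and POU3F2 not without replicate 1 of either condition (adjusted p 0.0108 to 0.137 over the 4).

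The HOX genes, which pattern the body axis, were higher with BMP4 in 11 of 26 measured members of 30 in the table, and 1 was lower (median 0.62, against 7.18% higher and 6.14% lower over all genes). The largest difference was in HOXC13 (gene 100412385), at 4.68 and 8.27 TPM with BMP4 and 0.18 and 0 TPM without (2.74 ± 0.31), followed by HOXB9 (gene 100400028) at 5.03 and 4.10 TPM and 0.14 and 0.61 TPM (2.03 ± 0.33). In the HOXA cluster, HOXA10 (gene 100396925) was at 36.4 and 28.6 TPM and 11.9 and 11.9 TPM (1.37 ± 0.24), HOXA11 (gene 100398017) at 27.8 and 19.7 TPM and 8.30 and 6.37 TPM (1.56 ± 0.27) and HOXA13 (gene 100410353) at 23.2 and 16.5 TPM and 7.08 and 5.48 TPM (1.51 ± 0.29). HOXA5, HOXA6, HOXA7, HOXA9, HOXB6 and HOXC11 were the other higher members. With 1 library left out 5 to 9 members were higher.

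Lists of epithelial to mesenchymal transition (EMT), proliferation and stress genes are set against 7.18% higher and 6.14% lower over all genes tested. None of the 7 measured EMT genes was called by limma (median −0.34, 1 at an unadjusted p under 0.05), SNAI2 being at 14.97 and 9.02 TPM and 17.6 and 14.9 TPM, VIM at 363 and 290.0 TPM and 473 and 371 TPM and CDH1 at 100.4 and 132 TPM and 93.2 and 113 TPM. Of 10 proliferation genes 1 was higher (median 0.06), AURKB (0.45), which lost its call without any 1 of the 4 libraries (adjusted p 0.103 to 0.214). Of 7 measured stress genes, 0 were called by limma (median 0.41, 3 at an unadjusted p under 0.05).

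The libraries at 12, 24 and 96 h give the BMP4 effect in other cells of the same line, with 2 libraries per condition and time. Of the 69 genes that were DEGs higher with BMP4 at 48 h, 13 were also called higher at 12 h, 43 at 24 h and 37 at 96 h, where 0.420%, 2.56% and 5.00% of all genes were called higher. Of the 45 lower DEGs, 1 was called lower at 12 h, 20 at 24 h and 28 at 96 h, where 0.0536%, 2.30% and 7.83% of all genes were called lower. At 96 h, 2 of the higher and 1 of the lower DEGs were called the opposite way, and at 12 and 24 h 0 were. The cells at 96 h had been sorted for BLIMP1-tdTomato in both conditions, and the 48 h cells, by their labels, had not.

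The BMP4 effect at 48 h differed from that at 24 h in 161 genes (1.44% of those tested, adjusted p under 0.05 for the difference), being more positive at 48 h in 88 (0.786%) and more negative in 73 (0.652%). The count was 47 to 119 with 1 of the 8 libraries left out, the lowest being without replicate 1 of SOX17 + BLSE at 24 h. Among the early targets, ID1, ID3, ID4 and MSX2 had larger effects at 24 h. MSX2 was at 349.9 and 289.6 TPM with BMP4 and 40.9 and 22.5 TPM without at 24 h, and the difference of the effects was −1.89 ± 0.32 (adjusted p = 0.000867). For ID4 the difference was −1.42 (adjusted p = 0.00982), for ID3 −1.48 (adjusted p = 0.000726) and for ID1 −1.04 (adjusted p = 0.0275). The values without BMP4 were lower at 24 h, ID1 being at 276 and 229 TPM then and at 512 and 521 TPM at 48 h, while with BMP4 it was at 958 and 929 and 1004 and 882 TPM. NOG was at 72.8 and 67.2 TPM with BMP4 and 6.70 and 5.35 TPM without at 24 h, and its difference of effects was −2.81 (adjusted p = 0.00194).

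KRT72, KRT80, PRR9 and GCM1 had a larger effect at 48 h than at 24 h. KRT72 was at 9.78 and 5.42 TPM with BMP4 and 1.66 and 0.62 TPM without at 24 h, and the effect at 48 h was larger by 4.98 ± 0.55 (adjusted p = 1.19e-06). KRT80 was below 4 TPM in all 4 libraries of 24 h and had a difference of effects of 3.81 (adjusted p = 0.000355). For GCM1, listed below 1 TPM in the 24 h libraries, the difference was 3.25 (adjusted p = 0.0018), and for PRR9 it was 4.06 (adjusted p = 0.00187). In the sorted cells of 96 h, PRR9 was at 301 and 531 TPM with BMP4 and 0 and 5.30 TPM without. DLX5, unlike the ID genes, also had the larger effect at 48 h, by 2.48 (adjusted p = 0.0018). The differences of TFAP2A (1.39, adjusted p = 0.068) and GATA3 (0.91, adjusted p = 0.401) did not pass the test.

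NODAL, MIXL1, EOMES and TUBB4A had a more negative effect at 48 h than at 24 h. At 24 h NODAL was at 132 and 113 TPM with BMP4 and 226 and 139 TPM without (adjusted p = 0.621), and the difference of effects was −3.02 ± 0.57 (adjusted p = 0.003). MIXL1 overlapped at 24 h, at 93.6 and 42.9 TPM and 148 and 55.7 TPM, and its difference of effects was −4.18 (adjusted p = 0.0153). For EOMES the difference was −3.85 (adjusted p = 0.00513) and for TUBB4A −2.37 (adjusted p = 0.00372). EOMES had the higher mean with BMP4 at 24 h, at 31.0 and 14.1 TPM with it and 17.3 and 4.73 TPM without. In the sorted cells of 96 h, NODAL stood at 5.84 and 6.70 TPM with BMP4 and 27.1 and 18.9 TPM without (−1.70, adjusted p = 0.00317), and MIXL1 was below 10 TPM in both conditions.

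**Figure D5:**
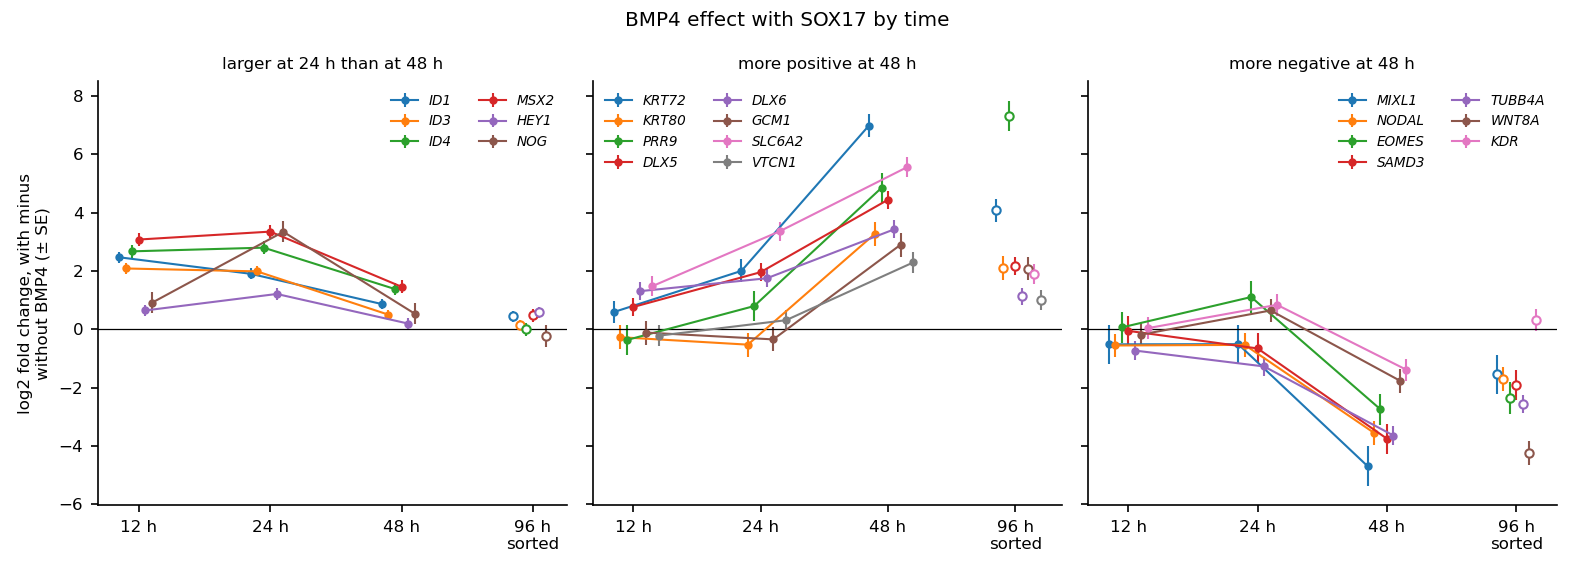
Log2 fold change of BMP4 over no BMP4 with SOX17 at 12, 24, 48 and 96 h (± SE), for named genes whose effect at 48 h differed from that at 24 h at an adjusted p under 0.05. Open circles at 96 h are sorted cells, and the panels show effects that were larger at 24 h (MSX2, ID4, NOG), more positive at 48 h (KRT72, PRR9, KRT80) and more negative at 48 h (MIXL1, NODAL, EOMES).

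Several of the genes that were high with BMP4 at 48 h were also high at 48 h in BLSE without SOX17 induction, a condition that was not tested here. DLX5 was at 64.8 and 64.5 TPM there, close to its values with SOX17 and BMP4. KRT72 was at 58.3 and 40.9 TPM, TFAP2A at 15.9 and 13.1 TPM and DLX3 at 7.27 and 6.31 TPM, between the values with SOX17 with and without BMP4. NODAL, at 26.8 and 29.3 TPM, and EOMES, at 4.28 and 5.37 TPM, were low there as well, while NANOS3 was at 3.82 and 3.44 TPM, below both conditions with SOX17.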

How the data were processed

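FACS-collected cells of cjESC-derived aggregates were profiled by poly(A) RNA-seq in biological duplicates. The authors aligned reads with STAR to the marmoset genome Callithrix_jacchus_cj1700_1.1, filtered alignments by mapping quality with samtools and estimated expression with RSEM. They deposited TPM values for 14812 genes, and sequencing depth is not given in the sources used here. All 54 libraries, with a mean for each of 27 conditions and 27 residual degrees of freedom, were fitted here on log2(TPM + 1) by limma 3.58.1 in R 4.3.3 with an intensity trend. The fit held the 11197 genes whose log2 value exceeded 1.5 in at least 1 library, and p-values were two-sided with Benjamini-Hochberg adjustment. DEGs were over 4-fold apart, had a mean log2 value above 1.5 and passed an adjusted p of 0.01, and list members were called at an adjusted p under 0.05. In the compared libraries 12182 to 12332 genes were above 0, and replicates correlated at r = 0.991 in both conditions. Named were the 4 marker genes, SOX17, genes that the study names for BMP4, members of gene lists, and the 12 largest changes in each direction among DEGs with a symbol, and genes outside this rule are marked as looked at after their values were seen. Some genes that the rule names, among them members of the lists counted, are not reported here. The comparison, the named genes and the lists were chosen with earlier results of these data known. Other pseudocounts, filters, scalings and sets of libraries were tried, and the script was tested on simulated data. No sequence was used here.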

Additional observations from a re-analysis of the deposited data

Results flagged for a closer look

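The BMP4 effect differed between 48 h and 24 h in 161 genes by limma with Benjamini-Hochberg adjustment at 0.05, a test of the difference itself with 2 libraries in each of the 4 conditions. The following values are the log2 effect at 48 h minus that at 24 h for the named genes that passed it.

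Among genes higher with BMP4 at 48 h, the difference was 4.98 for KRT72, 4.06 for PRR9, 3.81 for KRT80, 3.25 for GCM1, 2.48 for DLX5, 2.20 for SLC6A2, 1.98 for VTCN1, 1.68 for DLX6, 1.58 for EDNRB, 1.54 for HAND2 and 1.35 for TP63. It was −1.04 for ID1, −1.48 for ID3, −1.42 for ID4 and −1.89 for MSX2, which were also higher at 48 h, and −2.81 for NOG and −1.01 for HEY1, which were not called at 48 h.

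Among genes lower with BMP4 at 48 h, it was −4.18 for MIXL1, −3.85 for EOMES, −3.10 for SAMD3, −3.02 for NODAL, −2.41 for the ligand WNT8A, −2.37 for TUBB4A, −2.23 for the receptor KDR, −2.12 for the ligand WNT5B and −1.79 for FAM107A. Of these, EOMES, WNT8A, KDR and WNT5B had higher means with BMP4 than without at 24 h. In genes looked at after their values were seen, it was −5.17 for LOC100408978, −1.71 for SHH, −1.58 for GLI1, 2.81 for HHIP, 3.47 for TAT, 1.42 for GRHL1 and 1.47 for PPL.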

How the results depend on the processing

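The 114 DEGs numbered 102 with a pseudocount of 0.1 (82 of them shared), 113 with no filter, 111 with median-ratio scaling, 109 with quantile normalization and 113 with no intensity trend. A fit of the 4 libraries compared alone kept 2 DEGs, 2 higher and 0 lower, which has 2 residual degrees of freedom in place of 27. With 1 library left out, DEGs numbered 102 to 125 (67 to 82 higher, 30 to 50 lower), and genes with an adjusted p under 0.05 numbered 834 to 930 (502 to 517 higher, 328 to 428 lower) against 1491. The 161 genes whose effect differed between 48 h and 24 h numbered 58 with a pseudocount of 0.1, 23 in a fit of the 8 libraries alone and 47 to 119 with 1 library left out, and the cause was not tested.

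At 48 h, the deviations of replicates with the same number correlated at 0.063 between the 2 conditions. This value cannot settle whether replicates with the same number were prepared together. It was not computed for the 24 h libraries, where MIXL1 was higher in replicate 1 than in replicate 2 in both conditions. A replicate block gave 114 DEGs (114 shared), 1473 genes with an adjusted p under 0.05 and 160 genes for the difference from 24 h. The block changed no call of the 126 named genes. Of the 110 named genes that were called, none reversed under any alternative run, and 18 lost the call with a pseudocount of 0.1 (DKK1, SOX2 and HOXA13 among them), 5 with no filter, 17 with the 4 libraries alone (POU5F1, DPPA5 and HAND2 among them), 3 with median-ratio scaling, 1 with quantile normalization and 3 with no intensity trend. The last 3 settings cost SOX17 its call, as did a pseudocount of 0.1 and no filter. Among genes without a call, the sign reversed with 1 library left out for FGF2 (−0.254 to 0.228, and 0.024 without replicate 1 of SOX17 + LSE), AXIN2 (−0.383 to 0.124), CDX2 (−0.335 to 0.145) and CDH1 (−0.031 to 0.362). Low TPM values limit what these data can show, since depth is unknown and 418 genes were at 0 in every library.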

Other observations

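Parts of the Hedgehog pathway, looked at after their values were seen, stood on both sides of the BMP4 comparison at 48 h. SHH (gene 100395600), a ligand of the pathway, was at 0.69 and 1.60 TPM with BMP4 and 8.11 and 9.13 TPM without (−2.20 ± 0.30 on the log2 scale), and GLI1 (gene 100401526), a transcription factor and target of the pathway, at 1.09 and 1.80 TPM and 12.7 and 13.7 TPM (−2.55 ± 0.25). HHIP (gene 100404963), a membrane protein that binds Hedgehog ligands, was at 10.7 and 11.3 TPM and 1.06 and 1.59 TPM (2.37 ± 0.24). At 24 h the corresponding fold changes were −0.48, −0.98 and −0.44 (limma adjusted p = 0.505, 0.014 and 0.406). In the sorted cells of 96 h HHIP overlapped, at 77.1 and 83.1 TPM with BMP4 and 79.8 and 51.7 TPM without. SHH was then at 0.23 and 0.72 TPM with BMP4 and 1.16 and 2.69 TPM without, and GLI1 at 4.29 and 3.29 TPM and 11.3 and 7.40 TPM.

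Some other single genes were also looked at after their values were seen. GRHL1 (gene 100405054), a grainyhead factor of epidermis, was at 36.9 and 36.9 TPM with BMP4 and 5.14 and 6.85 TPM without (2.45). The cornified envelope proteins CSTA (gene 100406044) and PPL (gene 100407595) were at 23.4 and 34.1 TPM and 13.4 and 13.7 TPM with BMP4 and at 3.70 and 4.86 TPM and 2.15 and 2.95 TPM without (2.48 and 2.05). In cjESCs CSTA was at 21.9 and 35.1 TPM and PPL at 11.7 and 14.7 TPM. For both genes the values without BMP4 were thus the ones below those of cjESCs at 48 h. At 24 h the values with BMP4 were below cjESCs too, CSTA being at 21.0 and 10.8 TPM and PPL at 6.79 and 6.5 TPM. TAT (gene 100410667), which encodes tyrosine aminotransferase, an enzyme whose gene glucocorticoids induce in liver, was at 32.4 and 37.0 TPM and 1.79 and 2.95 TPM (3.42), with dexamethasone in both conditions. CXCL12 (gene 100402880), the chemokine that guides migrating germ cells, was lower with BMP4, at 1.51 and 2.65 TPM and 18.1 and 16.3 TPM (−2.59).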
